A study of Homo sapiens with 2 samples.

Results

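Potassium channel genes were taken as every row of the deposited count table whose symbol starts with KCN, at least 1 further capital letter and a number, with antisense transcripts left out. The rule reads the symbol and uses no measured value. There were 68 such rows among 17249. The 8 other rows with a KCN symbol, 7 of them antisense transcripts and 1 the regulator KCNRG, were not members. Of the 68, 67 encode channel subunits and 1, KCNQ5-IT1, is a transcript from an intron of KCNQ5. The 67 were sorted into 7 families that list 96 genes in all; the other 29 listed genes are not analysed here.

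Potassium channels let potassium leave or enter the cell along its gradient and so set the membrane potential and, through it, cell volume, calcium entry and the passage through the cell cycle. Voltage-gated (Kv) channels open on depolarisation, inward rectifiers (Kir) pass potassium best near rest, the K2P family, with its paired pore domains, gives background currents, and calcium-activated channels couple calcium signals to the membrane potential. In prostate and other carcinoma cells several of these channels, among them the large-conductance channel KCNMA1 (BK), the intermediate-conductance channel KCNN4 and the K2P channels, are known from work on proliferation and migration.

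The data were RNA sequencing counts from 2 libraries of poly(A)-selected RNA, both labelled DU145, an established human prostate carcinoma line. The cells labelled si-P53RRA received 200 pmol of small interfering RNA against the long noncoding RNA P53RRA with Lipofectamine, a change of medium after 4 h and 48 h more in culture. The control column is named for a negative-control small interfering RNA, while the control sample's title gives only the line; no genetic alteration is labelled in either. The series asks how loss of P53RRA bears on ferroptosis. The control library held 16030207 counts and the si-P53RRA library 11942362.

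With 1 library per group there was no replicate and no test between conditions, and every difference below lies between these 2 libraries. Pairs of counts or levels are given with the control first and si-P53RRA second, and "higher" and "lower" say where si-P53RRA stood. Ranges in parentheses are 95% intervals for counting error alone, and what was done to the cells, the culture and the library cannot be told apart. LINC00472, the gene of P53RRA, had 105 and 6 counts. The libraries differed widely in markers of cell type, and these stand beside every value that follows. Levels are in CPM, counts scaled to a common library size. Of 9 epithelial markers at 1 CPM or more in at least 1 library, 7 were higher by 2-fold or more and none was lower, and the summed level of the 14 on the list was 399 and 2055 CPM. Of 16 mesenchymal and fibroblast markers 14 were lower by 2-fold or more and none was higher by as much, with sums of 19919 and 1639 CPM. TGFBI, MMP2, THY1 and DCN were at 0 under si-P53RRA. The other 2 lay within 2-fold. VIM had 34930 and 14733 counts and was 1.61-fold lower (1.58 to 1.64), and PDGFRA had 500 and 636 and was 1.87-fold higher (1.66 to 2.11). Within the epithelial list the keratin KRT18 had 5870 and 8105 counts, KRT8 had 649 and 2062, KRT19 had 8 and 7052 and the claudin CLDN4 had 37 and 4737, while EPCAM had 0 and 50 and CDH1 had 2 and 7. The list was not uniform. KRT7 had 94 and 37 counts and was 1.73-fold lower (1.17 to 2.60), SPINT1 had 8 and 0, and CLDN7 had 20 and 23. HOXB13 had 0 and 10004 counts. Of 5 prostate luminal markers 2 were higher and 2 lower, with sums of 33.2 and 917 CPM. Of 6 neuronal and neuroendocrine rows, which summed to 97.0 and 390 CPM, 3 reached 1 CPM, with 1 higher and none lower by 2-fold. NEFL alone, with 22.2 and 352 CPM, made the sum higher. The rest had fewer counts: ENO2 had 1208 and 426 and was 1.93-fold lower (1.72 to 2.16), and SYP had 24 and 9. SNAP25 had 15 and 0, CHGB 4 and 0 and INA 4 and 0. Of 4 endothelial rows, which summed to 2.09 and 14.2 CPM, 3 reached it, with 2 higher and 1 lower. Of 3 leukocyte rows, which summed to 0.894 and 1.75 CPM, LYZ alone reached it and was higher, with 0.0596 and 1.40 CPM. The part of the cell type markers in the channel differences was not tested. A difference in cell population between the libraries and an effect of the small interfering RNA cannot be told apart, although both libraries carry the label DU145. In bulk RNA, fewer cells of a type and less RNA per cell cannot be told apart.

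Sequences of 4 genes are shown because they carry the main pattern: KCNMA1, the most abundant member in both libraries by CPM, KCNN4, the most abundant of those at least 2-fold higher in the si-P53RRA library, KCNK1, the one with the largest log2 change, and KCNK2, the most abundant of those at least 2-fold lower. Each is the window from 250 bases before to 50 after the first start that RefSeq lists for the gene on GRCh38.p14, a newer build than the hg19 of the counts, read 5′ to 3′ on the gene's strand. Capitals mark the GC box, GGGCGG on either strand.
KCNMA1 promoter, chr10:77637759-77638058, minus strand: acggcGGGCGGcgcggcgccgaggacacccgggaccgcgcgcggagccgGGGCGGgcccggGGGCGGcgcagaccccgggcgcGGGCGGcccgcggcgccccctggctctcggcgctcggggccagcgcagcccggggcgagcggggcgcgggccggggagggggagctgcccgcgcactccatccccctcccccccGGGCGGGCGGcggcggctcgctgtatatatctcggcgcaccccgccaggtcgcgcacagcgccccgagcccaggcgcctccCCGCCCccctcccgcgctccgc
KCNN4 promoter, chr19:43780924-43781223, minus strand: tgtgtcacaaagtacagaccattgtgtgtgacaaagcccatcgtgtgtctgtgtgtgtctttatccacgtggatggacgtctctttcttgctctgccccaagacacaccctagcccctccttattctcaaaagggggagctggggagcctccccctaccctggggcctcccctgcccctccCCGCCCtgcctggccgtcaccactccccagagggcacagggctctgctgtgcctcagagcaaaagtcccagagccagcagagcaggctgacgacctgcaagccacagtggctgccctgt
KCNK1 promoter, chr1:233613856-233614155, plus strand: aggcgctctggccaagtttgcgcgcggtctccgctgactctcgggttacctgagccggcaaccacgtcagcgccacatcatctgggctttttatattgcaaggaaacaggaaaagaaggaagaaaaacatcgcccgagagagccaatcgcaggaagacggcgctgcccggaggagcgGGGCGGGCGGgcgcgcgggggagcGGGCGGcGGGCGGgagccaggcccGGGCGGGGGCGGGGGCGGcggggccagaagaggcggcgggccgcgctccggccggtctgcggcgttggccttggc
KCNK2 promoter, chr1:215005292-215005591, plus strand: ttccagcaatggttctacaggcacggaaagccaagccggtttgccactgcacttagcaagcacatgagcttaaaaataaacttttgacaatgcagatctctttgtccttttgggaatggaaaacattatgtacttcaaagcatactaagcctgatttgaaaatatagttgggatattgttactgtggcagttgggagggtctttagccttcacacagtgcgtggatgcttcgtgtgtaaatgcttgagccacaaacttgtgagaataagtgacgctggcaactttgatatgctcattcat
The GC box was found at 7 places in the KCNMA1 window, 1 in that of KCNN4, 7 in that of KCNK1 and 0 in that of KCNK2, counting overlaps. The G and C content was 85.7% for KCNMA1, 60.7% for KCNN4, 70.7% for KCNK1 and 42.0% for KCNK2. The box is common: 44.6% of all 27305 promoters in the table, taking the first start of each gene, hold it, as do 70.2% of the 10142 promoters of rows with at least 1 CPM in either library. A promoter was listed for 47 of the 68 members, too few to compare those higher with those lower.

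Most potassium channel genes were expressed at low levels, and those that were expressed often differed several-fold between the libraries. Of the 68 rows, 35 reached 1 CPM in 1 library or both, and these alone were compared. On log2(CPM + 0.5), 18 of the 35 were higher by 2-fold or more, 11 were lower by as much and 6 lay within 2-fold. Over all 13532 rows at the same level, 19.7% were higher and 23.2% lower, together 42.9%, against 82.9% of the channel rows. Among rows whose higher level lay between 1 and 30 CPM, where 31 of the 35 channel rows were, 20.6% of all rows were higher and 29.0% lower, together 49.6%, against 83.9% of the channel rows. The median log2 change was 1.48 over the 35 and −0.06 over all rows. The high share was not particular to potassium channels. Of 13 other voltage-gated channel rows at 1 CPM, 84.6% differed by 2-fold or more.

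The filter bears on these counts, because a row that reached 1 CPM in 1 library only passed through the library where it stood higher. That was so for 23 of the 35 channel rows, or 65.7%, against 17.1% of all rows tested. With no filter 20 of the 68 were higher and 13 lower, 48.5% in all. Over all 17249 rows, 16.6% were higher and 19.5% lower, together 36.1%. The median was then −0.075 for the members and −0.080 for all rows. Of the 12 members with 1 CPM in both libraries, 4 were higher and 3 lower, 58.3% in all, and their median was −0.36. Over all such rows 16.2% were higher and 17.0% lower, together 33.2%.

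**Figure D1:**
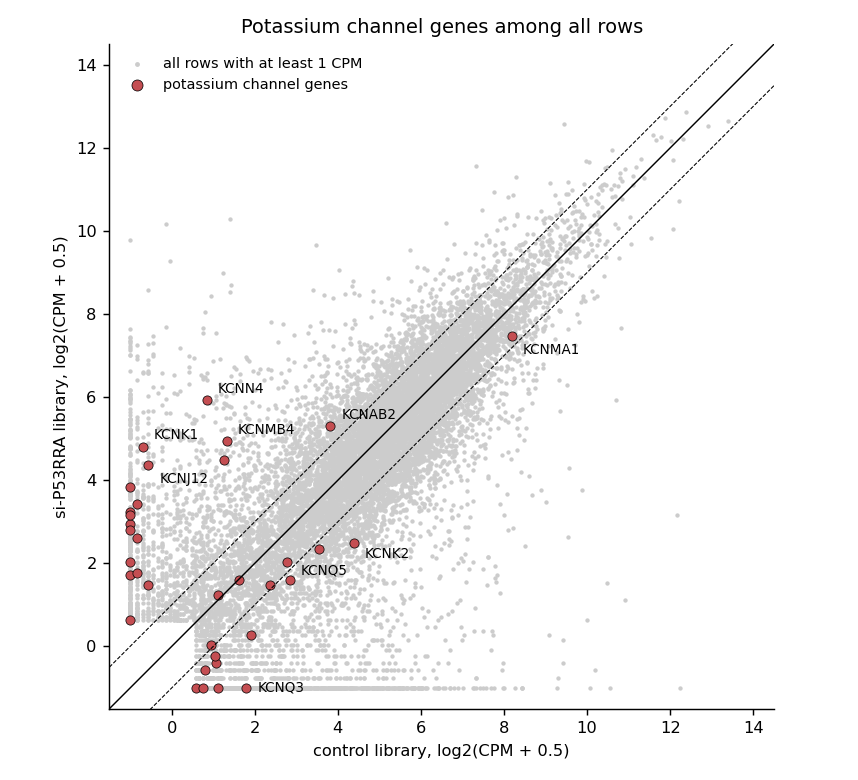
Level in the si-P53RRA library (vertical) against level in the control library (horizontal), both as log2(CPM + 0.5), for the 13532 rows that reached 1 CPM in 1 library or both (grey) and the 35 potassium channel genes among them (red). The solid line marks equal levels and the dashed lines 2-fold; 18 channel genes lie above the upper dashed line and 11 below the lower one.

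**Figure D2:**
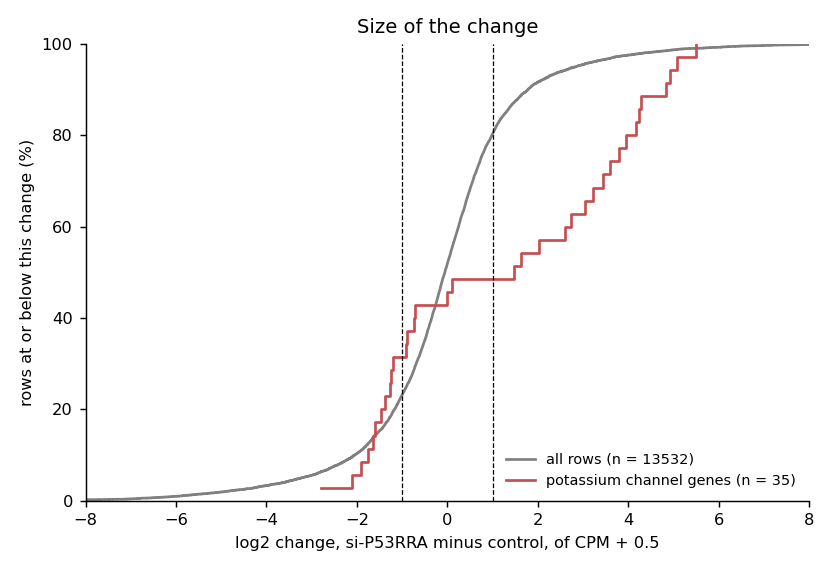
Cumulative share of rows (vertical, percent) by log2 change of CPM + 0.5, si-P53RRA minus control (horizontal), for all 13532 rows (grey) and the 35 potassium channel genes (red), with dashed lines at 2-fold. The channel genes have few rows near no change, with 6 between the dashed lines, and 18 to the right of them.

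Calcium-activated channels held most of the channel reads. KCNMA1, the pore of the BK channel, which opens with calcium and voltage together, had 4868 and 2008 counts, or 290 and 176 CPM. It was 1.65-fold lower (1.56 to 1.74), within the 2-fold limit. It made up 75.0% (73.9 to 76.0, exact binomial) of all member counts in the control and 36.7% (35.5 to 38.0) under si-P53RRA.

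The small and intermediate channels of the same group, which are opened by calcium and not by voltage, stood the other way. KCNN4, the intermediate-conductance channel also known from lymphocytes and red cells, had 22 and 689 counts, or 1.31 and 60.4 CPM. It was 46.1-fold higher (30.2 to 74.0). KCNN1, a small-conductance (SK) channel, had 0 and 158 counts, at least 77.5-fold higher against a floor of 3 counts in the control. KCNN3, another SK channel, had 1 and 118 counts and was 174-fold higher (30.6 to 6912). So 3 of the 4 SK and intermediate genes were far higher under si-P53RRA, while the fourth, KCNN2, had 10 and 0 counts and did not reach 1 CPM. Over all rows tested, 19.7% were higher and 23.2% lower. KCNN1 and KCNN3 reached 1 CPM in the si-P53RRA library only, so the filter passed them where they stood higher.

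KCNT2, a sodium-activated channel, had 20 and 0 counts, at least 4.53-fold lower. KCNU1, the sperm channel of the Slo family, had 3 and 0 counts. Without KCNMA1 the calcium- and sodium-activated channels summed to 3.34 and 84.6 CPM.

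The auxiliary beta subunits of BK, which tune its calcium response, diverged. KCNMB4, the subunit known from neurons, had 34 and 343 counts (2.03 and 30.1 CPM) and was 14.8-fold higher (10.4 to 21.8). KCNMB3 had 27 and 3 counts and was 6.12-fold lower (1.88 to 31.5), and its exons overlap PIK3CA on the other strand. The level of the KCNMB4 row was thus 0.698% of that of KCNMA1 in the control and 17.1% under si-P53RRA, counted in CPM and not per length.

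Per kilobase of the longest GENCODE transcript, the order of the leading channels also differed. KCNMA1 led the control library with 24.0 CPM per kb, followed by KCNK2 with 6.08 and KCNAB2 with 3.19. KCNN4 led the si-P53RRA library with 26.9 CPM per kb, before KCNMA1 with 14.6, KCNK1 with 12.7 and KCNAB2 with 9.09. These levels assume that the longest transcript is the one expressed.

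**Figure D3:**
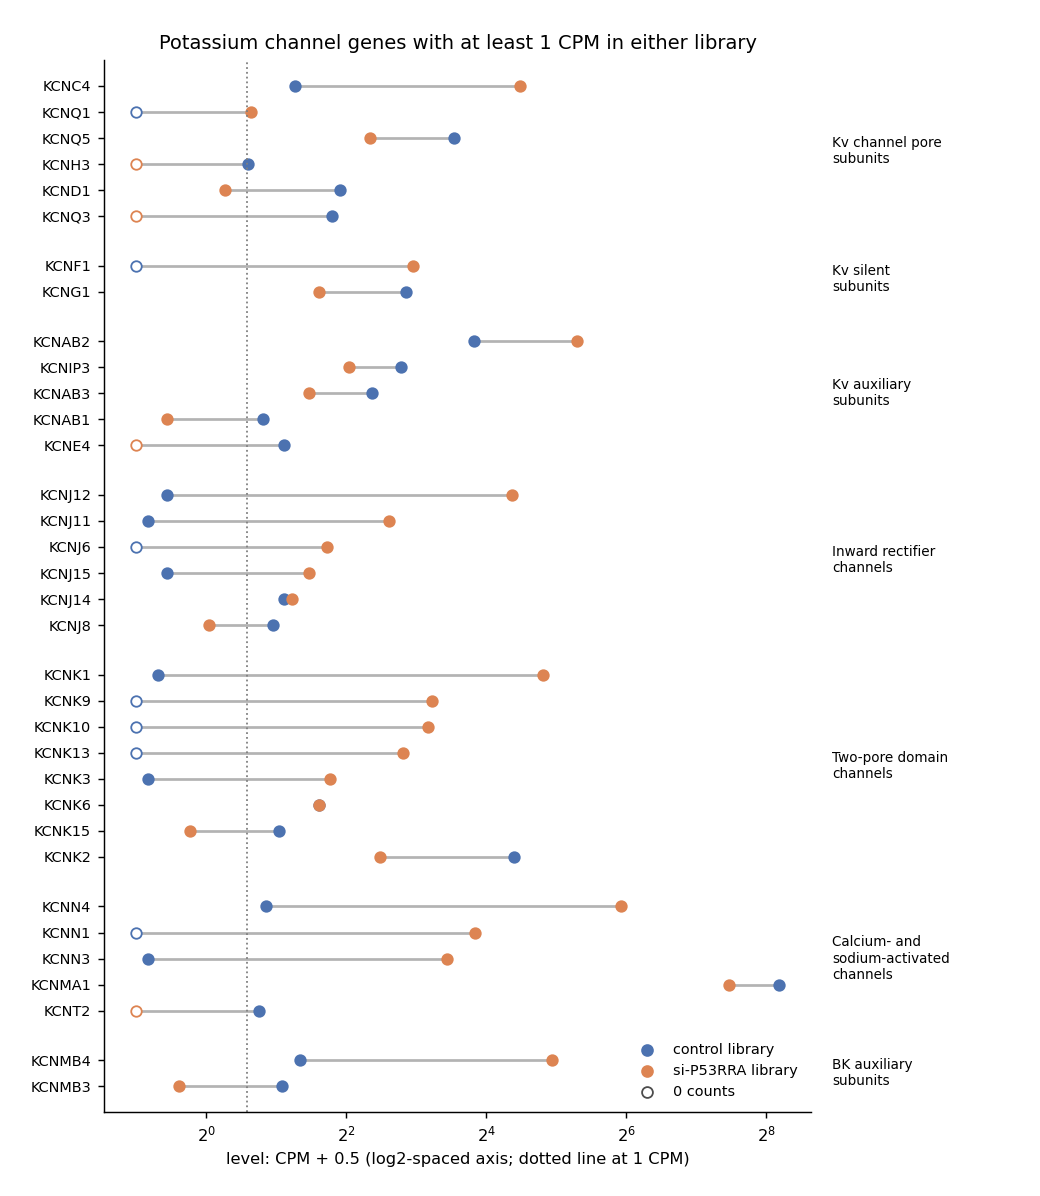
Level of 34 of the 35 potassium channel genes that reached 1 CPM, as CPM + 0.5 on a log2-spaced axis, in the control library (blue) and the si-P53RRA library (orange), 1 library each, grouped by family; open circles are 0 counts and the dotted line is 1 CPM. KCNMA1 sits highest in both libraries, and KCNK1, KCNN4 and KCNJ12 show the widest gaps, with the si-P53RRA library to the right.

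The K2P channels, which leak potassium at rest, had 15 genes on the list and 11 rows. Of 8 at 1 CPM or more, 5 were higher and 2 lower, where 19.7% and 23.2% of all rows tested were. The 5 higher ones reached 1 CPM in the si-P53RRA library only, so the filter passed them where they stood higher. KCNK1 (TWIK1), which forms a weak inward-rectifying background channel, had 2 and 314 counts (0.119 and 27.5 CPM) and was 231-fold higher (63.4 to 1915). The acid-sensitive channels KCNK9 (TASK3) and KCNK3 (TASK1) had 0 and 101 counts and 1 and 33 counts. KCNK9 was at least 49.5-fold higher and KCNK3 48.5-fold higher (8.13 to 1974).

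KCNK2 (TREK1), which responds to stretch and arachidonic acid, was the most abundant K2P channel of the control library and went the other way. It had 345 and 58 counts, or 20.6 and 5.08 CPM, 4.04-fold lower (3.05 to 5.44). KCNK10 (TREK2), its close relative, had 0 and 97 counts, at least 47.6-fold higher. The pair of TREK genes therefore stood in opposite directions between the libraries.

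KCNK13 (THIK1) had 0 and 74 counts, at least 36.3-fold higher. KCNK15, a TASK relative not known to carry current alone, had 26 and 4 counts and was 4.42-fold lower (1.53 to 17.4), and its exons overlap RIMS4 on the other strand. KCNK6 (TWIK2) was level, with 43 and 29 counts (2.56 and 2.54 CPM) and a ratio of 1.01 (0.615 to 1.67). KCNK7, with 14 and 5 counts, stayed below 1 CPM and its interval of 0.648 to 6.75-fold lower holds no difference.

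Among inward rectifiers, 16 genes were listed, 11 had rows and 6 reached 1 CPM, of which 4 were higher and none at least 2-fold lower on the log2 scale. Over all rows tested, 19.7% were higher and 23.2% lower. The 4 higher ones reached 1 CPM in the si-P53RRA library only, so the filter passed them where they stood higher. KCNJ12 (Kir2.2), a strong rectifier that clamps the resting potential, had 3 and 230 counts (0.179 and 20.2 CPM) and was 113-fold higher (38.1 to 551). Its near-identical relative KCNJ18 can share these reads. KCNJ6 (GIRK2), opened by G protein beta-gamma subunits, had 0 and 32 counts, at least 15.7-fold higher. Its neighbour on chromosome 21, KCNJ15, had 3 and 26 counts and was 12.7-fold higher (3.91 to 65.8).

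The genes of the ATP-sensitive channel, which closes when ATP is plentiful, differed by subtype. KCNJ11 (Kir6.2), the pore of the channel of pancreatic beta cells, had 1 and 64 counts and was 94.1-fold higher (16.3 to 3775). ABCC8, the sulfonylurea receptor that partners it and the next gene on chromosome 11, had 0 and 51 counts, at least 25.0-fold higher. KCNJ8 (Kir6.1), the pore of the vascular type, had 24 and 6 counts, 2.72-fold lower by the ratio (1.08 to 8.13) and −0.91 on log2(CPM + 0.5). Its partner ABCC9, the next gene on chromosome 12, had 173 and 42 counts and was 2.80-fold lower (1.99 to 4.02). Both genes of the first pair were thus higher, and both genes of the second lower by the ratio. ABCC9 was named after its values were seen.

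KCNJ14 (Kir2.4) was level, with 28 and 21 counts and a ratio of 1.10 (0.596 to 2.01), and its exons overlap GRWD1 on the same strand. The inward rectifiers summed to 4.17 and 34.1 CPM. KCNJ14, with 1.67 CPM, gave the most of the control sum and KCNJ12 the most of the si-P53RRA sum.

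The pore subunits of the Kv channels went both ways. The list had 30 genes, of which 17 had rows and 7 reached 1 CPM, with 3 higher and 4 lower. Over all rows tested, 19.7% were higher and 23.2% lower. Of the 7, 3 reached 1 CPM in the control library only and 2 in the si-P53RRA library only. KCNC4 (Kv3.4), a fast-inactivating channel, had 32 and 249 counts (1.91 and 21.8 CPM) and was 11.4-fold higher (7.90 to 17.1). KCNC1, of the same subfamily, had 6 and 3 counts.

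Of the KCNQ (Kv7) genes, whose channels carry the slow M-type and cardiac currents, KCNQ5 and KCNQ3 were lower and KCNQ1 was higher. KCNQ5 had 187 and 52 counts, or 11.1 and 4.56 CPM, 2.44-fold lower (1.79 to 3.39). It is the next tested gene to LINC00472 on chromosome 6. KCNQ3, an M-current subunit, had 50 and 0 counts, at least 11.3-fold lower. KCNQ1, the cardiac and epithelial channel, had 0 and 12 counts, and the antisense transcript KCNQ1OT1 in the same locus had 217 and 87. The sources used here do not give the strand of the reads, so the KCNQ1 counts and those of its antisense partner cannot be told apart.

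KCND1 (Kv4.1), an A-type channel, had 55 and 8 counts and was 4.67-fold lower (2.21 to 11.4). KCNH3, a relative of the EAG channels, had 17 and 0 counts, at least 3.85-fold lower, and its exons overlap MCRS1 on the other strand. KCNH1 (EAG1) and KCNH2 (hERG), often studied in tumours, had 7 and 0 counts and 1 and 0 counts, too few for a difference to be detectable at this depth.

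Silent Kv subunits form no channel alone and modify other Kv channels. KCNF1 had 0 and 83 counts, at least 40.7-fold higher, and KCNG1 had 113 and 29 counts and was 2.65-fold lower (1.75 to 4.13). The 7 other silent subunits with a row had at most 7 counts in either library.

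Of 13 listed auxiliary Kv subunits, 10 had rows and 5 reached 1 CPM. KCNAB2, a cytoplasmic beta subunit with an aldo-keto reductase fold, had 229 counts (13.6 CPM) and 443 (38.8 CPM) and was 2.85-fold higher (2.42 to 3.35). Its relatives KCNAB3, with 78 and 26 counts, and KCNAB1, with 21 and 2, were 2.04-fold lower (1.29 to 3.31) and 7.14-fold lower (1.75 to 62.8). On log2(CPM + 0.5) KCNAB3 was at −0.89, within the 2-fold limit. The beta subunit genes thus did not move as one. Exons of KCNAB2 overlap NPHP4 on the other strand.

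KCNIP3, a calcium-binding partner of Kv4 channels that also acts as the repressor DREAM, had 107 and 41 counts and was 1.77-fold lower (1.23 to 2.61). KCNE4, a single-pass subunit that inhibits KCNQ1, had 28 and 0 counts, at least 6.35-fold lower. KCNE5, a related subunit just under 1 CPM, had 16 and 0 counts, at least 3.63-fold lower, and its exons overlap ACSL4 on the same strand. KCNIP4, with 15 and 4 counts, had an interval that includes no difference (0.812 to 10.6-fold lower).

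Another 29 members had fewer than 10 counts over both libraries, with at most 7 in the control and 8 under si-P53RRA. Among these were KCNE2, KCNJ9, KCNV1, KCNG3, KCNS3, KCNH1, KCNIP2, KCNV2, KCNC1, KCNK12, KCND2, KCNQ5-IT1, KCNJ2, KCNJ13, KCNS2, KCNU1, KCNS1, KCNH5, KCNK4, KCNJ5, KCNA7, KCNG2, KCNH8, KCNJ4, KCNE1 and KCNH2. A count of 0 was read against a floor of 3 counts, and most differences among them were not detectable at this depth.

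**Figure D4:**
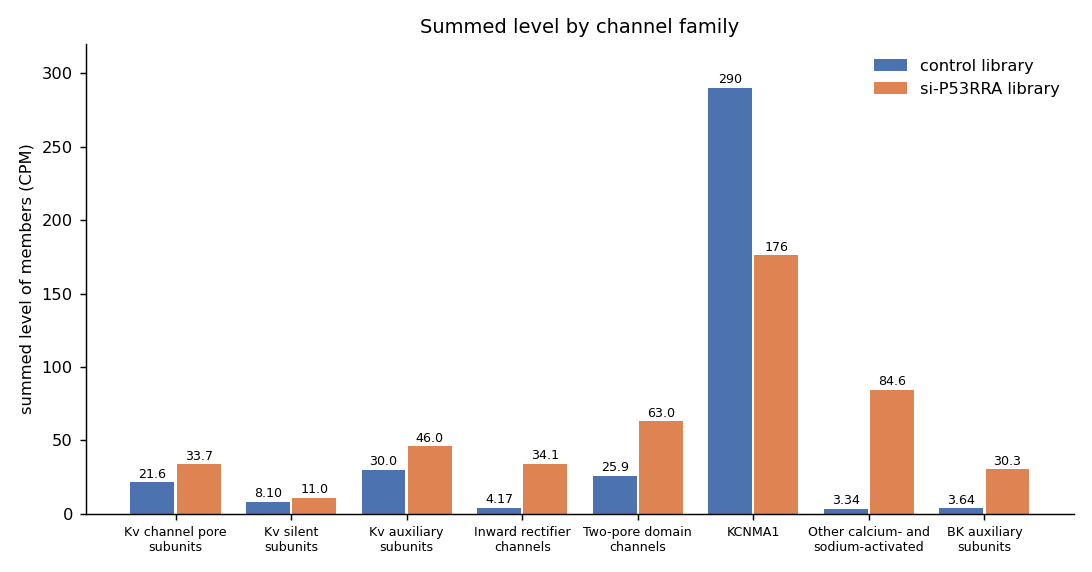
Summed level (CPM, vertical axis from 0) of the members of each family in the control library (blue) and the si-P53RRA library (orange), 1 library each, with KCNMA1 shown apart. KCNMA1 stands at 290 and 176 CPM, while every other bar pair is taller in the si-P53RRA library.

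The sum over all 68 members was 387 and 479 CPM. Without KCNMA1 it was 96.9 and 303 CPM, 3.13 times as much. Of the 35 members at 1 CPM, 21 reached that level in the control and 26 under si-P53RRA, with 12 in both. There were 8 at 0 in the control with more than 3 counts under si-P53RRA, where 2.17% of all rows tested were so, and 4 the other way, where 4.60% were.

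Transcript composition differed in the median between higher and lower members, with wide overlap. The longest transcripts of the 18 higher members had a median GC content of 57.0% and those of the 11 lower members 45.4%, against 48.3% over all 12807 tested rows with a value. The higher members ranged from 40.0 to 67.0% and the lower from 35.4 to 65.8%. Across all rows the median log2 change went from −0.58 in the fifth with the least GC to 0.40 in the fifth with the most. After a correction for GC content and length 18 members were higher and 11 lower, where 18.4% of all rows were higher and 21.1% lower. The lower members were not all the same genes. KCNMB3 went from −1.47 to −0.62 and lost its call, and KCNAB3 went from −0.89 to −1.07 and gained one. The corrected median was 1.21 for the members and −0.04 for all rows.

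Other genes of potassium handling were measured beside the channels. Of 10 tested partners outside the KCN symbols, 3 were higher and 3 lower, where 19.7% and 23.2% of all rows tested were. ANK3, the ankyrin that anchors KCNQ channels in axons, had 25 and 656 counts and was 38.6-fold higher (25.9 to 60.1), and AKAP9, which scaffolds KCNQ1, had 440 and 44 and was 6.80-fold lower (4.98 to 9.49).

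Of 10 tested pumps and cotransporters, 3 were higher and 2 lower, together 50%, near the 42.9% of all rows tested. SLC12A7, a potassium-chloride cotransporter, was 7.16-fold higher (6.41 to 8.03), while its relative SLC12A4 was 2.27-fold lower (2.00 to 2.59). ATP1B1, the main beta subunit of the pump, had 875 and 208 counts and was 2.86-fold lower (2.46 to 3.34).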

How the data were processed

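The authors deposited 1 table of raw counts per gene symbol with 2 columns; whole numbers and unequal column totals show that the counts were not normalized. Reads were mapped to hg19, per the submitters' processing notes; the sources used here do not name the aligner, counter, annotation, filters or strand setting. No row was at 0 in both columns. The column named si-NC was taken as the control.

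Library sizes were scaled by TMM in edgeR 4.0.16 (R 4.3.3), with factors of 1.05 for control and 0.955 for si-P53RRA. Changes are log2(CPM + 0.5), si-P53RRA minus control, for rows with at least 1 CPM in either library, called at 2-fold. Printed folds are ratios of CPM without the pseudocount, with exact conditional binomial 95% intervals. Against 0 counts, the "at least" folds set the observed count of the other library over a floor of 3 counts. They leave out the counting error of that observed count and are not 95% limits. The 95% interval of a count of 0 reaches 3.69, so 95% limits would lie lower. The intervals measure counting error alone. The reads carry no molecular identifiers, so copies of the same molecule cannot be told apart, and the intervals may be too narrow. Named in full were the 30 members with the highest CPM and the others with at least 10 counts; from other lists, at most 4 genes with at least 50 counts and the largest changes. Members and lists were chosen with earlier results of these data known. Lengths, GC content and overlaps came from GENCODE, gene order and promoters from RefSeq. Median-ratio factors came from DESeq2 1.42.0. The procedure was tested on simulated counts. Some genes are not reported here by name.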

Additional observations from a re-analysis of the deposited data

How the results depend on the processing

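The numbers of members at least 2-fold higher (18) and lower (11) stayed within 1.5 times under upper-quartile and median-ratio scaling, total counts, a pseudocount of 0.1 CPM and the request that the counting interval exclude 1. Total counts moved the median over all rows from −0.06 to −0.18 and that of the members from 1.48 to 1.35. With no filter on low values the median of the members was −0.075. Fewer rows pass a stricter filter: at 5 CPM in either library 13 of 18 members were higher and 3 lower (median 3.70), where 19.0% and 21.3% of all rows were. At a mean of 1 CPM 17 of 27 were higher and 5 lower (median 2.72), where 19.4% and 22.1% of all rows were. Both filters still pass a row through the library where it stood higher, as with KCNK1 at 0.119 and 27.5 CPM. Their medians are therefore taken over a different choice of rows and do not show a stronger difference. With a pseudocount of 2.5 CPM 16 of 35 were higher and 2 lower (median 0.51), where 15.7% and 17.6% of all rows were. With a 4-fold limit 16 were higher and 2 lower, where 8.34% and 10.3% of all rows were. Under these 4 settings the share of members called lower was below that of all rows, where the reported share is above it. Added after the data were seen, the correction for GC content and length gave a median of 1.21, and leaving out members whose exons overlap another gene that has a row in the table, which kept 29 of 35, gave 2.60. Of the 25 called among the 30 most abundant members, 24 kept their call after that correction and 18 with a pseudocount of 2.5 CPM. None of these 25 changed sign under these scalings, pseudocounts or the correction. The member with the largest log2 change did depend on the pseudocount. It was KCNK1 at 0.5 CPM (5.50). At 0.1 CPM it was KCNN1 (7.12, with KCNK1 at 6.98), and at 2.5 CPM KCNN4 (4.04, with KCNK1 at 3.52). KCNK6, which was not called, went from −0.01 to 0.00095 under median-ratio scaling. No paired analysis was possible because each group had 1 library. Low depth limits most the 29 members with fewer than 10 counts.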

Other observations

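Other voltage-gated ion channel genes, which are not potassium channels, also differed between the libraries. Of 13 tested sodium, calcium and HCN channel genes, 5 were higher in the si-P53RRA library and 6 lower (38.5% and 46.2%). Over all rows tested, 19.7% were higher and 23.2% lower. Together 84.6% of these 13 differed by 2-fold or more, about the share of the potassium channel rows (82.9%). CACNA1H, a low-threshold T-type calcium channel that can supply calcium to calcium-activated potassium channels, had 0 counts in the control and 1661 under si-P53RRA, at least 814-fold higher. The P/Q-type channel gene CACNA1A had 9 and 200 counts and was 32.7-fold higher (16.9 to 72.5), and CACNA1E, the R-type channel gene, had 0 and 51, at least 25.0-fold higher. SCN9A, a sodium channel gene of sensory neurons, had 178 and 0 counts, at least 40.3-fold lower.

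The rows next to the members on the chromosomes, in RefSeq order among rows tested, were described in the same way. Of 36 neighbours of higher members 15 were also higher (41.7%), where 34.3% of the neighbours of all higher rows were. The 15 include KCNJ6 and KCNJ15 as neighbours of each other, so that pair was counted from both sides. The share over all rows counts such pairs in the same way. Of 22 neighbours of lower members 7 were also lower (31.8%), where 36.6% of the neighbours of all lower rows were. KCNK1 (5.50 on the log2 scale) lies beside SLC35F3 (5.19), and KCNN1 (4.84) beside ARRDC2 (3.95). KCNK10 (4.17) lies beside GALC, which stood at −4.19. These pairs were named after their values were seen.

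Antisense transcripts of the channel loci were left out of the members. KCNQ1OT1 had 217 and 87 counts (control first), 1.70-fold lower (1.32 to 2.20), and KCNMB2-AS1 had 0 and 11 counts.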
